A study of Mus musculus with 8 samples.

Results

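Lipid-associated macrophages are phagocytes that gather around lipid-laden or dying cells in fat, artery wall and fatty liver. The genes that mark them were followed here in livers of mice without the gene Pemt (Pemt−/−), whose product makes phosphatidylcholine by methylation, and in livers of Pemt+/+ mice. The list held 10 genes, namely Trem2, Gpnmb, Lgals3, Mmp12, Cd9, Cd63, Spp1, Itgax, Fabp5 and Lpl, and its members were all probe sets that the annotation of the array paired with 1 of these genes alone. Of the 10 genes, 8 had such a probe set, out of 18193 genes on the array, and they had 12 probe sets among the 45037 that were not controls. Cd63 and Spp1 were paired singly with none and are not analysed here.

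The series held 8 Affymetrix arrays of total liver RNA, taken after 1, 2, 3 or 4 weeks on a high fat-high sucrose (HFHS) diet, and every week had a single Pemt−/− array and a single Pemt+/+ array. All mice of both genotypes ate this diet, so no array measured standard chow. Pemt−/− is a whole-body deletion, the methods describe male mice, and they give 4 mice per genotype without saying how these were divided over the arrays. The age at sampling is not stated. The 4 weeks of a genotype served as its replicates, so SDs hold the change between weeks as well as the spread between arrays, which may be technical. The fit of the genotype difference takes out the change between weeks that both genotypes share. Its p-values set the size of the difference against how far it varied from week to week, which also holds the spread between arrays.

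In these tissues TREM2 is a surface receptor for lipids and lipoproteins that signals through an adaptor, TYROBP, and is needed for macrophages to take on the lipid-associated state. The other genes of the list code for surface proteins, secreted proteins and proteins that handle fatty acids. Some of them are not particular to macrophages, since LPL and FABP5 are also made by fat cells and other tissues.

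The deleted gene checked the labels, with Pemt at 201 to 255 intensity units in Pemt−/− livers and 4989 to 6045 in Pemt+/+ livers. The array of Pemt+/+ liver at week 4 stood apart in genes of fat cells. Adipoq, the adipocyte hormone adiponectin, was at 2.34 to 30.6 on the Pemt−/− arrays, at 10.1 to 62.1 on the Pemt+/+ arrays of weeks 1 to 3 and at 1081 on the Pemt+/+ array of week 4. Fabp4, a fat-cell lipid carrier, read 1404 to 2110 on the Pemt−/− arrays, 794 to 1268 on the Pemt+/+ arrays of weeks 1 to 3 and 8641 on that of week 4. The values of Fabp5 and Lpl are therefore given with and without week 4. No detection calls were used, so the 95th percentile of 44 probe sets of olfactory receptor genes served as the background level of an array, and it lay between 65.7 and 72.9 on Pemt−/− arrays and between 87 and 123 on Pemt+/+ arrays. All 13 measured hepatocyte markers were above background on every array.

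Promoter windows of 300 bases, 250 before and 50 after the start of a transcript, were read from RefSeq (GRCm38.p6) for 8 of the 10 members, in 10 windows, with none for Fabp5 and Lpl. The 4 windows below are shown because these genes were higher together in Pemt−/− livers. They were also picked because each holds a match to TGANTCA, called an AP-1 match here. This pattern is wider than the consensus site of FOS and JUN dimers, which is TGACTCA or TGAGTCA. Trem2 lies at chr17:48346151-48346450, Gpnmb at chr6:49036268-49036567, Itgax at chr7:128129300-128129599 and Mmp12, in the downstream one of its windows, at chr9:7347124-7347423, all on the plus strand. Capitals mark every match, on either strand, to TGANTCA, to the PU.1 core GAGGAA, to the E-boxes CACGTG and CATGTG of MITF and TFE factors, and to the TATA box TATAAA.
Trem2: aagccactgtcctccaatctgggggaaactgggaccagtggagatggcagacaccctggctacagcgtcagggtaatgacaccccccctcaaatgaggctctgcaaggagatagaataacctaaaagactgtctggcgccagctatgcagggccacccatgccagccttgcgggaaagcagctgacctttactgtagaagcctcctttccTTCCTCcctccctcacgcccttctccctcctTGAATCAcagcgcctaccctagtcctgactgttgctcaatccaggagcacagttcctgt
Gpnmb: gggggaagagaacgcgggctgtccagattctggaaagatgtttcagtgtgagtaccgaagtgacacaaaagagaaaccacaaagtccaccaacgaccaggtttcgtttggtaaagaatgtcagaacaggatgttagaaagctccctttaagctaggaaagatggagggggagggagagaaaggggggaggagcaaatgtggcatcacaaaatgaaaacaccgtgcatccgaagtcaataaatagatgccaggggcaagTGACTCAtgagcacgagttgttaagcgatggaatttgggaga
Itgax: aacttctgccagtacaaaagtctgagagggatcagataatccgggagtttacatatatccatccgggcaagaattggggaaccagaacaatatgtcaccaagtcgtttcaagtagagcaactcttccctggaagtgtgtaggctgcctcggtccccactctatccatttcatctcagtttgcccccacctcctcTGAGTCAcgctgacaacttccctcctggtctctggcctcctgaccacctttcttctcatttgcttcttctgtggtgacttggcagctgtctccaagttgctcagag
Mmp12: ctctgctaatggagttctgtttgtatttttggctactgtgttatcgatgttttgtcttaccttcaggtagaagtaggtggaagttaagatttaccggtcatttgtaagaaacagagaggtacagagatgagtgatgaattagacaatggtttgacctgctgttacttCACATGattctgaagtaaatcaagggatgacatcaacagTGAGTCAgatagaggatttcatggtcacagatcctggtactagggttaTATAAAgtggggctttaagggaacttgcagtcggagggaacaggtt

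The AP-1 match was TGAATCA in Trem2, outside the FOS and JUN consensus, and began 9 bases before the annotated start. It was TGACTCA in Gpnmb, beginning 8 bases after the start, and TGAGTCA in both Mmp12 and Itgax, 44 and 56 bases before it. No AP-1 match stood in the other 6 windows. Among these were the windows of Lgals3 and Cd9, which were also higher in Pemt−/− livers. The 4 windows shown were picked for holding a match, so that they share it is not a result. Of 32851 mouse promoter windows of this length, 7.81% held one. The PU.1 core, bound by a factor of the myeloid lineage, was in 4 of the 10 windows, against 28.3% of all windows. An E-box was in 2 windows against 20.4%, and TATAAA in 2 against 13.6%. No motif searched overlapped another in the windows shown. A match is a description of letters and not of binding.

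The main question was how each gene differed between Pemt−/− and Pemt+/+ livers across the weeks. Of the 12 probe sets, 11 passed a filter on low values (a mean log2 intensity above the 40th percentile of all probe sets). Of these, 8 probe sets of 7 genes were higher in Pemt−/− livers, both probe sets of Fabp5 were lower and 1 of Trem2 passed in neither direction, at an adjusted p under 0.05 in limma. Over all 27022 probe sets tested, 10.3% were called higher and 5.86% lower. On Pemt+/+ values alone 8 of the 12 would pass the filter, and neither those of Trem2 nor that of Mmp12 would, so the Pemt−/− values helped to bring these into the test. The values of the 2 genotypes did not overlap for 8 of the 11 tested probe sets with Pemt−/− above, where 12.8% of all probe sets did so, and for 2 with Pemt−/− below, where 8.96% did. The median difference of the 8 genes was 2.61 on the log2 scale, beside 0.02 over all genes tested, but it rests on genes near background in Pemt+/+ livers. It was 2.87 with a constant of 1 in place of the 16 added before taking logs, 1.95 with a constant of 64, and 1.76 with those genes at their lower bound over the background level. Fewer cells of a type and less RNA per cell cannot be told apart in these bulk samples.

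**Figure D1:**
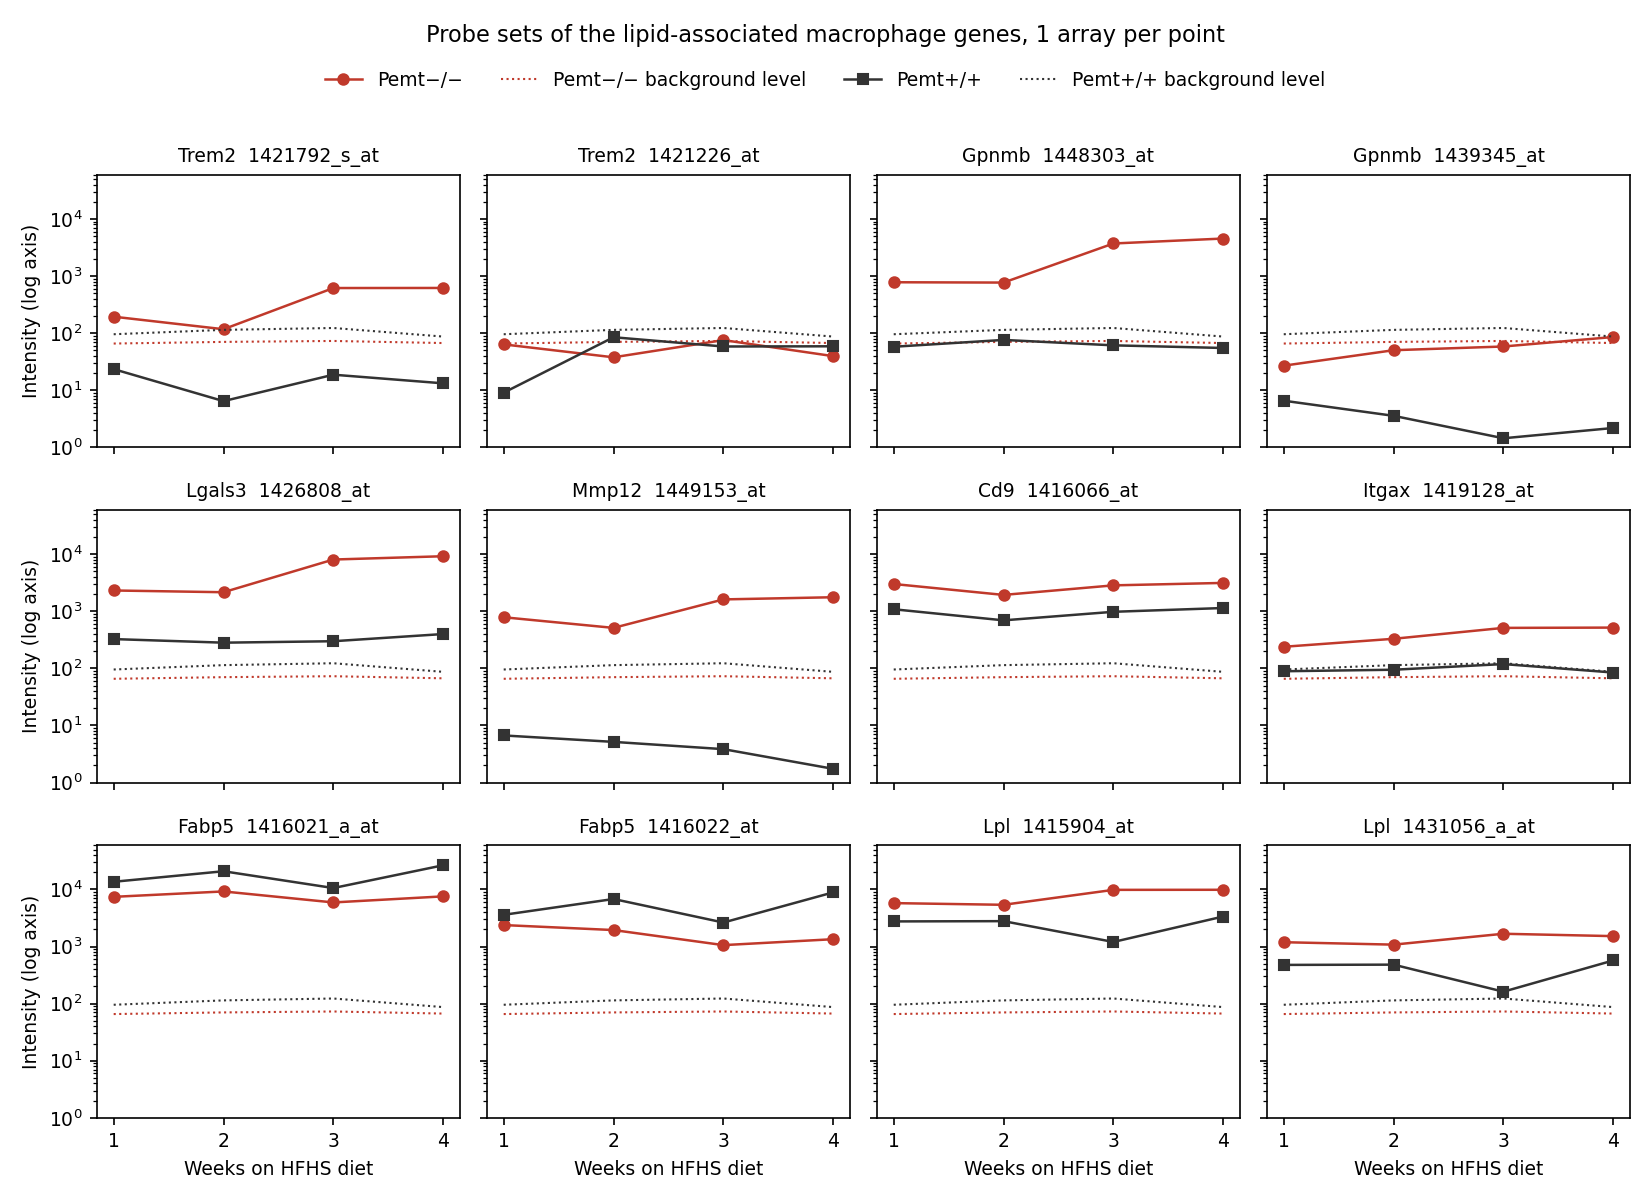
Intensity (log axis) of the 12 probe sets of the 8 measured genes against weeks on the HFHS diet, with Pemt−/− in red circles and Pemt+/+ in black squares, 1 array per point, and the background level of each array as a dotted line. Gpnmb (1448303_at) ran between 768 and 4536 in Pemt−/− livers and between 54.9 and 76 in Pemt+/+ livers, and Fabp5 is the gene whose Pemt−/− values lay under those of Pemt+/+ in every week.

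Among the surface receptors, Trem2 was measured by a pair of probe sets that differed from each other. The probe set 1421792_s_at read 194, 117, 616 and 618 at weeks 1 to 4 in Pemt−/− livers, against 23.4, 6.44, 18.7 and 13.2 in Pemt+/+ livers. All 4 Pemt+/+ values lay under the background level, so only a lower bound of the ratio can be given, of at least 2.03, 1.02, 5.02 and 7.1-fold at weeks 1 to 4. The fitted difference was 3.40 ± 0.37 on the log2 scale (SE; adjusted p = 0.00128, limma), and it was 4.35 with a constant of 1 and 2.28 with a constant of 64. On Pemt+/+ values alone this probe set would not pass the filter, so its Pemt−/− values brought it into the test. Without the filter its adjusted p was 0.00282 (limma). The suffix of this probe set says that its probes may also match other transcripts. The probe set 1421226_at read 63.5, 37.7, 75.5 and 39.5 in Pemt−/− livers, against 9.06, 84.7, 58.3 and 58.8 in Pemt+/+ livers. These values overlapped between the genotypes, lay near background and differed by 0.16 ± 0.42 (SE; adjusted p = 0.836, limma), or by -0.35 (adjusted p = 0.565) without week 1. Which of these probe sets follows the Trem2 transcript was not tested.

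Gpnmb codes for a glycoprotein of the lysosome and cell surface that rises in lipid-loaded macrophages. Its probe set 1448303_at read 778, 768, 3714 and 4536 in Pemt−/− livers, against 57.7, 76, 61.1 and 54.9 in Pemt+/+ livers. The Pemt−/− values of weeks 3 and 4 stood far above those of weeks 1 and 2, while every Pemt+/+ value lay under the background level. The fitted difference was 4.53 ± 0.45 (SE; adjusted p = 9.20e-04, limma), and the ratio was at least 8.14, 6.71, 30.3 and 52.1-fold at weeks 1 to 4. A dimmer Gpnmb probe set, 1439345_at, did not pass the filter. It read 26.9, 50.2, 58.3 and 85.5 in Pemt−/− livers, of which 1 array was above background, against 6.55, 3.56, 1.44 and 2.18 in Pemt+/+ livers. Without the filter it differed by 1.82 ± 0.32 (SE; adjusted p = 0.0128, limma).

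Itgax, the integrin CD11c that marks dendritic cells and lipid-associated macrophages, read 239, 329.8, 512 and 518 in Pemt−/− livers, against 89.1, 94.7, 119 and 84.6 in Pemt+/+ livers. The genotypes did not overlap, and the Pemt+/+ values lay just under the background level. The fitted difference was 1.82 ± 0.20 (SE; adjusted p = 0.00133, limma), and the measured ratio was 2.68, 3.48, 4.29 and 6.13 at weeks 1 to 4, or at least 2.5, 2.88, 4.17 and 5.96 against the background level.

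Among the secreted proteins, Lgals3, the sugar-binding lectin galectin-3, was above background on all arrays. It read 2314, 2157, 8064 and 9208 in Pemt−/− livers, against 326, 282, 299 and 399.5 in Pemt+/+ livers. Its lowest Pemt−/− value was above every Pemt+/+ value, and it averaged 5436 ± 3725 in Pemt−/− livers and 327 ± 51.9 in Pemt+/+ livers (SD, n = 4 each), with a fitted difference of 3.70 ± 0.32 on the log2 scale (13-fold; SE; adjusted p = 5.56e-04, limma).

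Mmp12, the macrophage elastase that cuts elastin, read 786, 512, 1615 and 1762 in Pemt−/− livers, against 6.69, 5.16, 3.85 and 1.74 in Pemt+/+ livers. Each Pemt+/+ value was far under the background level, where the order of values carries no meaning, so the ratio is given as at least 8.22, 4.47, 13.2 and 20.2-fold at weeks 1 to 4. The fitted difference was 5.70 ± 0.33 (SE; adjusted p = 1.66e-04, limma), or 7.69 with a constant of 1 and 4.02 with a constant of 64. Its size is therefore not ranked against other genes. On Pemt+/+ values alone Mmp12 would not pass the filter, so its Pemt−/− values brought it into the test. Without the filter its adjusted p was 3.59e-04 (limma).

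Cd9, a tetraspanin that organises other proteins of the cell membrane, gave the most even difference across weeks. It read 3006, 1935, 2845 and 3140 in Pemt−/− livers, against 1085, 694, 979.5 and 1141 in Pemt+/+ livers. The ratio within a week was 2.77, 2.79, 2.9 and 2.75, and the lowest values of both genotypes fell in week 2. The fitted difference was 1.47 ± 0.09 (SE; adjusted p = 2.65e-04, limma), a 2.77-fold difference, and it stayed between 1.43 and 1.49 under all 14 alternative settings run.

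**Figure D2:**
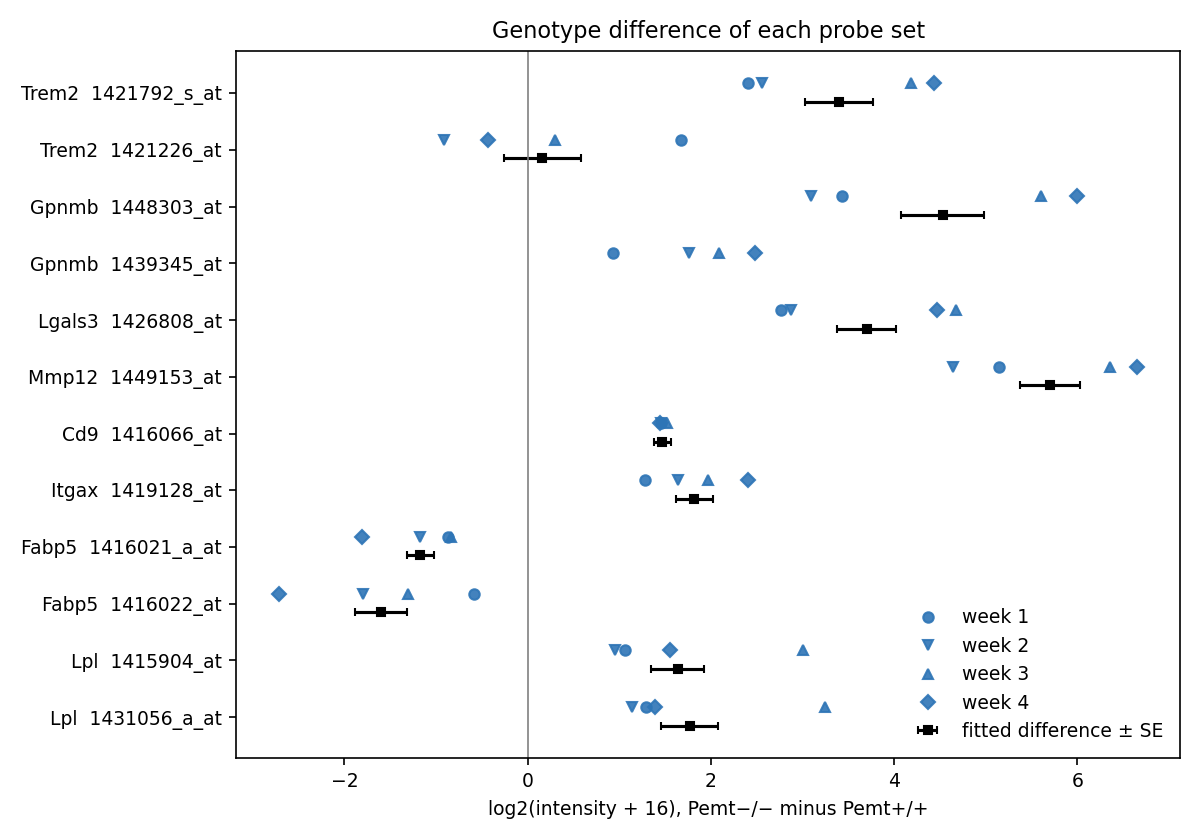
Difference of log2(intensity + 16) between Pemt−/− and Pemt+/+ livers for each probe set, with the pair of arrays of each week as a blue symbol and the fitted difference ± SE in black (not fitted for Gpnmb 1439345_at, which did not pass the filter). The weeks of Cd9 lie together near 1.47, those of Gpnmb (1448303_at), Lgals3, Mmp12 and Trem2 (1421792_s_at) split between weeks 1 and 2 and weeks 3 and 4, and both Fabp5 probe sets lie left of 0.

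Of the genes that handle fatty acids, Lpl, the lipase that frees fatty acids from lipoprotein triglyceride, was higher by both of its probe sets. The probe set 1415904_at read 5764, 5385, 9837 and 9868 in Pemt−/− livers, against 2755, 2785, 1203 and 3359 in Pemt+/+ livers. The ratio was 2.09, 1.93, 8.18 and 2.94 at weeks 1 to 4, and the large ratio of week 3 coincided with the lowest Pemt+/+ value. The difference was 1.64 ± 0.29 (SE; adjusted p = 0.00742, limma), 1.19 (adjusted p = 0.00563) without week 3 and 1.67 (adjusted p = 0.0231) without week 4, the week of the array with fat-cell transcripts. The probe set 1431056_a_at read 1191, 1080, 1675 and 1522 in Pemt−/− livers, against 477, 482, 162 and 571 in Pemt+/+ livers. Its difference was 1.77 ± 0.31 (SE; adjusted p = 0.00711, limma), 1.27 (adjusted p = 0.00416) without week 3 and 1.89 (adjusted p = 0.017) without week 4.

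Fabp5, a carrier of fatty acids within cells that macrophages, fat cells and epithelia make, ran the other way. The probe set 1416021_a_at read 7423, 9229, 5922 and 7565 in Pemt−/− livers, against 13627, 20834, 10584 and 26528 in Pemt+/+ livers. The highest Pemt−/− value was under the lowest Pemt+/+ value, and the Pemt−/− arrays varied less, with 7535 ± 1352 in Pemt−/− and 17893 ± 7184 in Pemt+/+ livers (SD, n = 4 each). The difference was -1.17 ± 0.15 (SE; adjusted p = 0.00223, limma), or -0.96 ± 0.12 (adjusted p = 0.00438) without week 4. The probe set 1416022_at read 2378, 1945, 1059 and 1345 in Pemt−/− livers, against 3596, 6802, 2634 and 8895 in Pemt+/+ livers, and differed by -1.60 ± 0.28 (SE; adjusted p = 0.00651, limma), or by -1.23 ± 0.21 (adjusted p = 0.0112) without week 4. The Pemt+/+ array of week 4, with Adipoq at 1081, was the highest for both probe sets. That of week 2, with Adipoq at 16.8, was the next. The part of fat-cell RNA in the Fabp5 difference was not tested, and the difference was called with and without week 4. Both probe sets of Fabp5 and both of Lpl missed an adjusted p of 0.05 by the methods' t-test, with adjusted p values of 0.0758 and 0.0894 for Fabp5 and of 0.0586 and 0.0546 for Lpl.

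Within each week the study extracted genes by the ratio of the genotypes, so the same count was made over all 12 probe sets, with no test. A ratio of 2 or more was met by 10, 8, 9 and 9 probe sets at weeks 1 to 4, where 13.3%, 13.4%, 14.4% and 15.9% of the 45037 probe sets met it. A ratio of 0.5 or less was met by 0, 3, 1 and 2 probe sets, against 14.2%, 14.9%, 15.9% and 14.6%. In all 4 weeks 8 of the 12 stayed at 2 or more, against 1.41% of all probe sets, and none at 0.5 or less, against 0.679%. The ratios of the near-background probe sets among them carry the limit given above. The 8 include Gpnmb 1439345_at, for which no lower bound could be given in any week. They also include Trem2 1421792_s_at, with a lower bound of 1.02 at week 2. The 10 of week 1 include Trem2 1421226_at, at 63.5 against 9.06, both under the background level. The 3 at 0.5 or less in week 2 include the same probe set, at 37.7 against 84.7, again both under the background level.

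The next question was whether the genes changed over the weeks within a genotype. In Pemt−/− livers the slope over the weeks was 0.98 ± 0.16 log2 units per week for Gpnmb (SE; adjusted p = 0.0609, limma). It was 0.78 ± 0.14 for Lgals3 (adjusted p = 0.0835), 0.70 ± 0.23 for Trem2 1421792_s_at (adjusted p = 0.299) and 0.51 ± 0.17 for Mmp12 (adjusted p = 0.307), so none passed the threshold. Of all probe sets, 0.104% were called for this slope and 0.0296% upward. In Pemt+/+ livers no probe set was called by limma for its slope, while 1472 (5.45%) had an unadjusted p under 0.05, and none was called for the difference of the slopes, with 1818 (6.73%) at an unadjusted p under 0.05. That difference was 1.02 ± 0.23 per week for Gpnmb (SE; adjusted p = 0.498) and 0.69 ± 0.20 for Lgals3 (adjusted p = 0.604).

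The values of these genes did not follow a straight line, and a comparison of weeks 3 and 4 with weeks 1 and 2 was added after the values were seen. In Pemt−/− livers Gpnmb was higher in the later weeks by 2.38 ± 0.19 (SE; adjusted p = 0.00261, limma) and Lgals3 by 1.94 ± 0.17 (adjusted p = 0.00337), where 0.189% of all probe sets were called upward. Trem2 1421792_s_at differed by 1.92 ± 0.37 (adjusted p = 0.0633), Mmp12 by 1.39 ± 0.27 (adjusted p = 0.0668) and Cd9 by 0.31 ± 0.24 (adjusted p = 0.73). In Pemt+/+ livers Gpnmb differed by -0.16 ± 0.19 and Lgals3 by 0.18 ± 0.17, and limma called none of all probe sets, with 5.62% at an unadjusted p under 0.05. The difference between the genotypes in this step was 2.54 ± 0.27 for Gpnmb (SE; adjusted p = 0.0233, limma), 1 of 3 probe sets called upward (0.0111%; 0.0185% in either direction and 7.94% at an unadjusted p under 0.05), and 1.76 ± 0.24 for Lgals3 (adjusted p = 0.0527). As the comparison was chosen on these same values, its p-values are too small by an unknown amount and are no test of a change. The planned slopes, given above, called no member.

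**Figure D3:**
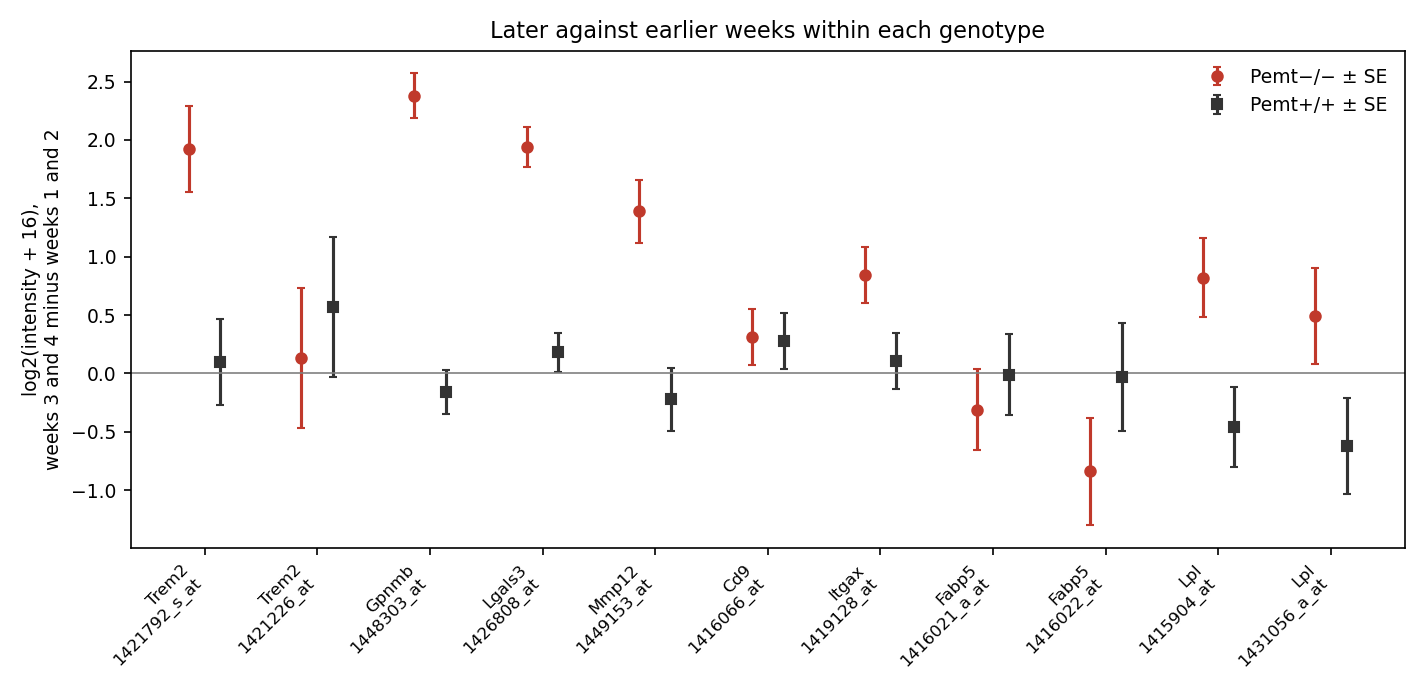
Difference of log2(intensity + 16) between weeks 3 and 4 and weeks 1 and 2 for the 11 tested probe sets, with Pemt−/− in red circles to the left of Pemt+/+ in black squares, and bars giving ± SE. Gpnmb and Lgals3 stand at 2.38 and 1.94 in Pemt−/− livers and at -0.16 and 0.18 in Pemt+/+ livers. The split of the weeks was chosen after the values were seen.

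Other genes that work beside the list were taken by list. Of 27 other tested genes that lipid-associated phagocytes express, 17 were higher in Pemt−/− livers, 1 was lower and 9 did not pass, with a median of 0.75. Without weeks 1, 2, 3 or 4 in turn, 16, 15, 12 and 14 were higher. Fabp4 was among the 9, with the outlying 8641 on the Pemt+/+ array of week 4. In weeks 1 to 3 it read 2110, 1783 and 1537 in Pemt−/− livers, against 1268, 1147 and 794 in Pemt+/+ livers. Over all 12949 genes tested, 12.6% were higher and 7.51% lower. Cd36, a scavenger receptor that takes up lipids, read 2073, 2116, 3450 and 3225 in Pemt−/− livers, against 655, 621, 827 and 906 in Pemt+/+ livers (3.5-fold, adjusted p = 1.73e-04, limma). Cd52 (4.12-fold, adjusted p = 6.83e-04) is a leukocyte surface glycoprotein, and Lgals1 (3.99-fold, adjusted p = 9.99e-04) codes for galectin-1. The lower one was Abca1, which exports cholesterol and was not called without week 1, without week 3 or without week 4, and its name was given after its value was seen. Of the lysosomal enzymes in this list, Ctsb, Ctsd, Ctss and Gla were among the higher genes. Ctsl, Ctsz, Lipa and Acp5 were among those that did not pass.

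Of 11 tested genes of TREM2 signalling, 7 were higher, 1 was lower and 3 did not pass, but 4 were higher and none was lower without week 3, and likewise without week 4. Plcg2, a phospholipase downstream of the receptor, was 2-fold higher (adjusted p = 0.00432, limma). Inpp5d, the lipid phosphatase SHIP1 that restrains the pathway, was 1.84-fold higher (adjusted p = 0.00562). The kinase Btk read 172, 159.6, 196 and 182 in Pemt−/− livers. Its Pemt+/+ values of 79, 60.6, 98.1 and 45.7 were all under the background level, so its fitted 2.28-fold (adjusted p = 0.00711, limma) is not a measured size. Of the 12 genes of this list with a probe set, 7 to 9 lay above background on a Pemt+/+ array. The adaptor Tyrobp, named for its role, read 2300, 2026, 3998 and 4071 in Pemt−/− livers, against 1233, 1229, 691 and 877 in Pemt+/+ livers (2.98-fold, adjusted p = 0.00759).

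Of 9 tested genes for the beta chain of CD11c, for other integrin chains of leukocytes and for receptors of osteopontin, the product of Spp1, 5 were higher and 4 did not pass, with 3 higher without week 3 and 3 without week 4. Itgb2, the beta chain that CD11c needs to reach the surface, read 913, 631, 1400 and 1681 in Pemt−/− livers, against 276, 207, 176 and 169.7 in Pemt+/+ livers (4.99-fold, adjusted p = 0.00156, limma). Cd44, a receptor of osteopontin and hyaluronan, was 3.61-fold higher (adjusted p = 0.00129), and Itgal, the CD11a chain that also pairs with Itgb2, was 2.13-fold higher (adjusted p = 0.00443).

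Of 8 tested genes whose products act with LPL, none was higher, 2 were lower and 6 did not pass, with 1 lower without week 1. Apoc3, an inhibitor of LPL, differed by -0.38 (adjusted p = 0.023, limma) and Apoa5, an activator, by -0.32 (adjusted p = 0.0401), and neither was called without week 3 or without week 4. Among 6 tested members of the fatty acid binding protein family other than Fabp5, Fabp7, the brain form, was 2.29-fold higher (adjusted p = 0.00158, limma) and Fabp1, the liver form, differed by -0.39 (adjusted p = 0.0247), while 4 did not pass. Of 6 other galectins, Lgals1 and Lgals4 were higher and 4 did not pass. Of 10 other tetraspanins, Cd53, a leukocyte form, and Cd151 were higher and 8 did not pass, but neither was called when the probe sets of a gene were averaged. In these 3 families leaving out 1 week moved the genes called higher to between 1 and 3 a family, with 1 galectin called whichever week was left out, and Fabp1 lost its call without weeks 1, 3 or 4.

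Markers of whole cell types moved beside the members, and their part in the result was not tested. Of 18 tested pan-macrophage markers, 17 were higher in Pemt−/− livers, with a median of 1.47, and Spi1 did not pass. Their summed intensity was 35945 to 59893 in Pemt−/− livers and 15186 to 20724 in Pemt+/+ livers. Ptprc, the leukocyte antigen CD45, was 3.34-fold higher (adjusted p = 7.75e-04, limma). All 6 tested monocyte markers were higher, with a median of 2.24 and a summed intensity of 2439 to 4326 in Pemt−/− and 1002 to 1334 in Pemt+/+ livers. Only 1 to 2 of these 6 lay above the background level on a Pemt+/+ array, so this median is not a measured size. Most of the Pemt+/+ sum was Plac8, at 822 to 1072. Among the 6 was Ccr2, the receptor that draws monocytes into tissue, at 320.2, 246, 543 and 591 in Pemt−/− livers. In Pemt+/+ livers Ccr2 read 67.6, 52.4, 47.3 and 65.2, under the background level in every week.

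Of 11 tested markers of Kupffer cells, the resident macrophages of the liver, 3 were higher, 1 was lower and 7 did not pass, with a median of 0.24. Marco, a scavenger receptor, read 2508, 1322, 464 and 298 in Pemt−/− livers, against 452, 314, 203 and 212 in Pemt+/+ livers. Its Pemt−/− values were highest in week 1, when Gpnmb and Lgals3 were low. Clec1b was higher by 0.69 (adjusted p = 0.00486, limma) and Cd163 differed by -0.98 (adjusted p = 0.0175), a call that was lost without week 3 and without week 4. The summed intensity of these markers was 17937 to 32997 in Pemt−/− and 16464 to 20825 in Pemt+/+ livers, and the ranges overlapped.

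**Figure D4:**
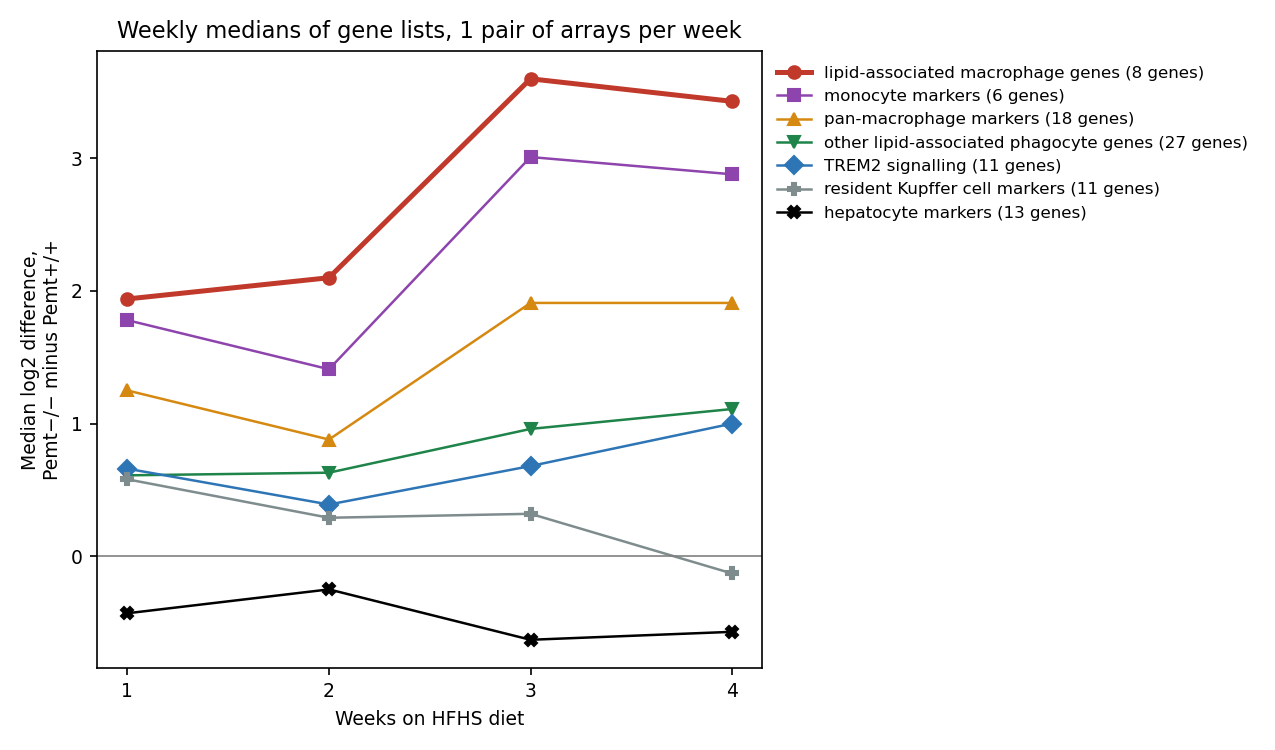
Median log2 difference between Pemt−/− and Pemt+/+ livers in each week for the 8 measured lipid-associated macrophage genes and for 6 other lists, with 1 pair of arrays per week. The member genes stood at 1.94, 2.10, 3.60 and 3.43 at weeks 1 to 4, the monocyte markers at 1.78, 1.41, 3.01 and 2.88, the pan-macrophage markers at 1.25, 0.88, 1.91 and 1.91, and the Kupffer cell markers at 0.58, 0.29, 0.32 and -0.13. With members near background at their lower bound, the member genes stood at 1.39, 1.49, 2.67 and 2.70. No such bound was taken for the other lists, and 1 to 2 of the 6 monocyte markers lay above background on a Pemt+/+ array.

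Of the other cell types, all 10 stellate cell and fibroblast markers were higher (9 without week 3, 9 without week 4 and 7 with the probe sets of a gene averaged), with a summed intensity of 40580 to 51648 in Pemt−/− and 15564 to 19425 in Pemt+/+ livers. Of 5 tested neutrophil markers 3 were higher and of 8 cholangiocyte markers 3, of which 1 was called without week 3 and 1 without week 4. None of 5 dendritic cell markers and none of 4 lymphocyte markers was called, with 1 lymphocyte marker higher without week 4. Of 10 endothelial markers 4 were lower, with 1 without week 1 and none without week 3 or without week 4. Of 13 hepatocyte markers 11 were lower and none higher, with 7 without week 1, 4 without week 3 and 5 without week 4. The 1 tested adipocyte marker, Retn, was not called, and Adipoq and Lep did not pass the filter. The summed intensity of these 3 was 28.2 to 142 in Pemt−/− and 60.6 to 1920 in Pemt+/+ livers.

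The genes outside the list whose log2 values over the 8 arrays were most like the mean standardised profile of the members were Anxa2, Cytip, H2-Ab1, Iqgap1, Mtmr11 and Ccr2, with a Pearson correlation between 0.995 and 0.997. The arrays fall into 2 genotypes that set most of such a value, so it is given as a description without a test. Anxa2, the membrane-binding annexin A2, read 4221, 4154, 10085 and 12054 in Pemt−/− livers, against 773, 919, 718 and 1035 in Pemt+/+ livers. H2-Ab1, an MHC class II chain that presents antigen, read 1478, 1373, 2207 and 2413 in Pemt−/− livers, against 638, 626, 590.0 and 659 in Pemt+/+ livers. Of the members themselves, the correlation with that profile was 0.94 to 0.99 for the 7 genes that were higher and -0.76 for Fabp5. The values of every member are part of the profile, so these correlations are no independent measure of likeness.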

How the data were processed

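Liver RNA of Pemt−/− and Pemt+/+ mice on the HFHS diet was hybridised to Affymetrix arrays, 1 array per genotype and week over 4 weeks. The files hold the linear intensity per probe set that the authors deposited. Affymetrix Expression Console is named in the submitters' processing notes, with version and summary method not given in the sources used here. A trimmed mean of 500.0 was found on every array, so the arrays had been scaled to a common level, and the array medians ran from 73.8 to 81.3. No scan date or batch was at hand. Precision is limited by the number of arrays.

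Of 45101 probe sets, 64 controls were left out. The annotation of the array paired 34945 with a single gene, 932 with several and 9160 with none here, and 34741 matched RefSeq by Entrez identifier. Values were taken as log2(intensity + 16), which shrinks the measured fold changes of dim probe sets. Where the Pemt+/+ values lay under the background level, the true fold is unknown. The fitted fold can then lie above the lower bound that the values allow. Probe sets with a mean above the 40th percentile entered the fits of limma 3.58.1 (R 4.3.3; eBayes with trend, two-sided), with week as a factor and then genotype, or with week as a number within each genotype, and adjusted by Benjamini-Hochberg over all 27022. The scripts were tested on simulated data. A probe set with all Pemt+/+ values at or under the background level has its ratio given as at least the Pemt−/− value over the higher of the Pemt+/+ value and the background. For gene lists the probe set of the highest mean stood for a gene. Some genes stand in more than 1 list.

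The members, the gene lists and the tests were chosen with earlier results of these data known. Named genes were the members, Pemt, up to 3 genes of each list with the smallest p and the 6 genes most like the members, beside those the text says were named otherwise. Alternatives were other constants, filters, normalizations, background levels and tests, no week block, and leaving out each week. The Python scripts used pandas 2.3.3 and numpy 2.4.6.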

Additional observations from a re-analysis of the deposited data

Results flagged for a closer look

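On the array of Pemt+/+ liver at week 4, 3 genes of fat cells lay far from the other Pemt+/+ arrays, with a gap to the next value that Dixon's criterion calls outlying. Adipoq was at 1081, Retn, the adipocyte hormone resistin, at 808 and Fabp4 (1417023_a_at) at 8641. The other Pemt+/+ arrays read 10.1 to 62.1 for Adipoq, 12.7 to 65.2 for Retn and 794 to 1268 for Fabp4. These were 3 of 28 groups of 4 arrays looked at, and chance marks about 1 in 20. Neither Fabp5 nor Lpl was marked by this criterion, and both were called with and without week 4.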

How the results depend on the processing

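Of the values of single probe sets of the list and of their median under the alternatives, 256 kept their direction and side of the threshold, 4 fell below it, 6 passed it and 1 turned, Trem2 1421226_at at -0.35 without week 1 (-0.35 to 0.51 with 1 week left out). The 6 include Gpnmb 1439345_at without the filter, which had no main test. A probe set that a filter dropped gave no value and is not in these counts. The members called higher went from 8 to 7 with the filter at the 60th percentile, which dropped Trem2 1421792_s_at. They went to 6 with the filter on Pemt+/+ values, which dropped that probe set and Mmp12. Of the counts, 155 stayed within 1.5 times and 27 moved, and the cause was not tested. The genotype difference gave 4372 calls, 2348 by eBayes without the trend, 2511 by the methods' t-test (7864 before adjustment) and 1818 to 4793 with 1 week left out, fewest without week 3. The members called lower went to 0 by the t-test, which called 6 of the list after adjustment and 10 before. With no week block, that is without pairing the arrays of a week, there were 4619 calls and no call of a member changed. The Pemt−/− slope gave 28 calls, 16 with a constant of 1, 62 with 64, 1 without the filter, 63 with the filter at the 60th percentile, 62 after quantile normalization, 7 after median centring, 0 without the trend, 99 as the step of weeks 3 and 4 and 0 to 101 with 1 week left out. The members with a rising Pemt−/− slope were 0, but 1 with a constant of 64, 1 with the stricter filter and 1 after quantile normalization, each time Gpnmb (adjusted p = 0.0409, 0.0466 and 0.0476), 2 as the step and 0 to 2 with 1 week left out (Gpnmb 0.0314 and Lgals3 0.0397 without week 2). The Pemt+/+ slope gave 0 to 2 calls with 1 week left out, 2 without week 3. As a step, a split chosen after the values were seen, the genotypes differed in 5 probe sets, of which 1 was a member. With the median of the olfactory probe sets as background, 3 in place of 6 members were near it. The lists held 97 calls in all, and 60 to 98 with 1 week left out, 60 without week 3. A gene that stands in more than 1 list was counted in each. With the probe sets of a gene averaged the lists held 81 calls.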
